A study of Mus musculus with 6 samples.

Results

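Brush border structure genes are the 10 genes Vil1, Myo7b, Myo1a, Cdhr2, Cdhr5, Ush1c, Anks4b, Espn, Eps8 and Ezr, of 53379 genes annotated in the deposited tables. Myo7b was picked because it was higher in LOH libraries, and the other 9 were listed by their role beside it, with earlier results of these data known. The values of Myo7b are therefore a description without a test, and the question was whether its partners follow. The list was matched by gene name, and 9 of the 10 genes passed the filter on low counts. Ush1c did not.

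The 6 libraries hold total RNA of pancreatic tumour organoids, epithelial cultures grown in a basement membrane gel, from tumours of genetically engineered mice (strain given as C57/Bl6, age not given in the labels). All 6 carry Pdx1-Cre, in which the Pdx1 promoter drives Cre recombinase in pancreatic epithelium and so removes the stop cassette before an LSL allele. The heterozygous libraries (n = 3) are Trp53 LSL-R172H/+, the mutant beside a wild-type allele, and the LOH (loss of heterozygosity) libraries (n = 3) are Trp53 LSL-R172H/-, with the wild-type allele lost. Each of organoid lines 6, 23 and 34 gave 1 library of each kind, and values are given in that order of lines. No label states whether the LOH cultures are clones, and what the suffix in their descriptions stands for was not given, so it cannot be told apart from the genotype.

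A brush border is a dense array of microvilli on the apical face of absorptive epithelium, best known from the intestine and the kidney tubule. Each microvillus holds a bundle of actin filaments cross-linked by villin (Vil1) and espin (Espn) and capped near its tip by Eps8, and it is tied to the membrane by ezrin (Ezr) and myosin 1a (Myo1a). Neighbouring tips are held together by the cadherins Cdhr2 and Cdhr5, whose cytoplasmic ends bind a complex of harmonin (Ush1c), the ankyrin repeat protein Anks4b and the motor myosin 7b (Myo7b).

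In short, the cadherins Cdhr2 and Cdhr5 and the bundlers Vil1 and Espn rose in LOH libraries, and the scaffold genes Ush1c and Anks4b were not among the called genes. Ush1c had at most 18 counts in any library, and Anks4b was lower in all 3 LOH libraries without passing the test. Of the 9 partners, 4 passed an edgeR adjusted p of 0.05, all higher, beside 3.55% of all 14537 genes tested that were called higher and 1.66% called lower. When organoid line entered as a block, 1 of the 9 passed, Cdhr2, beside 1.47% of all genes called and 1.22% called higher. Of the 9 partners, 8 were tested in these fits. DESeq2 called 7 of 8 tested, 6 higher and Anks4b lower (15.7% of all genes tested), and edgeR with no filter 3 of 9 (3.62%). limma, where Espn and Ush1c were not tested, called 3 of 7 on log2(TPM + 1), Anks4b lower among them (16%), and 2 of 7 on log2(TPM + 0.1) (14.7%). In bulk RNA, fewer cells of a type and less RNA per cell cannot be told apart.

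Libraries held between 13680458 and 27917277 expected counts, and genes in the deposited protein-coding table made up 67.9% to 73.3% of a heterozygous and 61.5% or less, except 67.2% in line 6, of an LOH library. Trp53 was at 77.3, 76.3 and 86.5 CPM (counts scaled to the library size, corrected by TMM) in heterozygous and at 73.5, 52.5 and 47.4 CPM in LOH libraries (log2 fold change -0.47, SE 0.22, edgeR adjusted p 0.227; 0.0368 without LOH line 6), and gene counts do not separate its alleles. The summed level of 7 epithelial markers was 5211 to 6006 CPM in heterozygous and 5091 to 11166 CPM in LOH libraries, against at most 0.0667 and 0.68 CPM for 6 fibroblast markers and 0.0334 and 0.378 CPM for 3 endothelial markers. The sums for leukocyte (6 genes), acinar (5), endocrine (5) and hair cell (4) markers were at most 2.27, 0.816, 0.1 and 0.0334 CPM in heterozygous and 14.8, 2.39, 0.175 and 0.34 CPM in LOH libraries. Of the leukocyte sum in LOH line 34, Cd68 made 14.7 CPM, and Ptprc reached at most 0.264 CPM. No label says more of the source of a culture than its line number, so p-values measure the spread between these cultures.

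Some markers of intestinal cell types were called higher in LOH libraries as well. The 6 enterocyte markers summed to 6.88 to 9.87 CPM in heterozygous and 70.8 to 163.1 CPM in LOH libraries, and 1 of the 2 tested genes was called higher, Krt20, a keratin of mature intestinal epithelium, at 8.51, 9.79 and 6.68 CPM in heterozygous and 79.2, 65.8 and 92.2 CPM in LOH libraries. Fabp1 and Fabp2, which define enterocytes, reached at most 0.582 and 0.466 CPM. In LOH line 6, Alpi reached 64.5, Apoa4 12.2 and Apoa1 6.11 CPM, and Apoa1 reached 4.30 CPM in LOH line 23, against at most 0.3, 0 and 0.167 CPM for these genes in heterozygous libraries. The 5 goblet cell markers summed to 17.99 to 28.0 and 57.2 to 259.7 CPM, with 2 of 5 called higher, Clca1 and Spdef (edgeR adjusted p 0.0399 and 0.0468; 0.079 and 0.0534 with the block), beside the 3.55% of all genes called higher. Muc2, Tff3 and Fcgbp were not called, and their groups overlapped. In line 23, Tff3 had 11.4 CPM in the heterozygous and 0.227 CPM in the LOH library, and Fcgbp 11.6 and 7.47 CPM. Both were higher in the LOH libraries of lines 6 and 34. The 8 tuft cell markers summed to 51.6 to 56.6 and 43.96 to 84.7 CPM, of which Ptgs1 made 43.5 to 66.5 CPM, with none of the 2 tested called. LOH line 23 had 449 counts of Dclk1 (17.0 CPM), against 2 to 15 counts in the other libraries, and 26 counts of Pou2f3, against 0 to 6, while Gfi1b and Il25 were at 0 counts in all 6 libraries. The part of these cell types in the results below was not tested.

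Myo7b, the myosin motor that carries the adhesion complex to microvillus tips, had 3.20, 5.12 and 4.47 CPM in the heterozygous libraries and 39.8, 63.5 and 51.9 CPM in the LOH libraries, from 69 to 134 and 683 to 1683 counts. The groups lay far apart, and the gap was close to the same in each line, with log2 ratios of 3.60, 3.61 and 3.51. The mean was 12.1-fold higher in LOH libraries, and these are the values that chose the gene. Myo7b lies on chromosome 18 (31959234 to 32036961, minus strand, GRCm38). The annotation places the antisense gene Gm16344 within it on the opposite strand, with 0 to 5 counts per library.

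Cdhr2, a protocadherin of the tip links, rose in LOH libraries. It had 5.50, 5.19 and 4.21 CPM in the heterozygous libraries and 123.6, 40.1 and 30.6 CPM in the LOH libraries, with means of 4.97 ± 0.68 and 64.8 ± 51.2 CPM (SD, n = 3 each). The groups did not overlap, and LOH line 6 stood well above the other LOH libraries. edgeR put the log2 fold change at 3.70 (SE 0.57, adjusted p 0.0229; blocked by line 0.0397), and at 2.79 without LOH line 6. The call was lost without heterozygous line 6, 23 or 34 (adjusted p 0.122, 0.116 and 0.13), where no gene of the whole table was called and 2272 to 2966 genes had an unadjusted p under 0.05. With both libraries of line 23 or 34 left out, Cdhr2 (0.171 and 0.101) and every other gene also missed the threshold, and the unadjusted p was under 0.05 for 2253 and 2097 genes. Cdhr2 lies on chromosome 13 (54701461 to 54736662, plus strand).

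Cdhr5, the cadherin that pairs with Cdhr2 across neighbouring microvilli, rose as well. Its heterozygous libraries had 4.10, 4.75 and 5.71 CPM and its LOH libraries 78.5, 12.2 and 43.8 CPM. The groups did not overlap, and LOH line 23 was the lowest of the LOH libraries. Means were 4.85 ± 0.81 and 44.9 ± 33.2 CPM (SD, n = 3 each), and edgeR gave 3.20 as its log2 fold change (SE 0.63, adjusted p 0.0385). Cdhr5 did not pass with the block (0.0941), without LOH line 34 (0.0622), without any 1 line (0.0833, 0.143 and 0.202 without lines 6, 23 and 34), or without heterozygous line 6, 23 or 34 (0.162, 0.163 and 0.171), and the log2 fold change was 2.49 without LOH line 6. The gene lies on chromosome 7 (141269083 to 141276786, minus strand).

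Ush1c, which encodes the scaffold harmonin that joins both cadherins to Myo7b, was barely detected. It had 1, 0 and 1 counts in the heterozygous libraries and 17, 0 and 18 counts in the LOH libraries of lines 6, 23 and 34. The detected LOH libraries had 0.99 and 0.838 CPM, where 3 counts correspond to 0.1 to 0.223 CPM across the libraries. In line 23, Ush1c was thus at 0 counts in the LOH library in which Myo7b was at its highest level, which allows up to 0.113 CPM there. Ush1c was left out by the filter. In fits that kept it, it passed 0.05 only without LOH line 23 (edgeR adjusted p 0.0355, in a range up to 0.362). The gene lies on chromosome 7 (46195350 to 46238503, minus strand), and Gm9860 on the opposite strand within it had at most 2 counts.

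Anks4b, the scaffold that binds harmonin and Myo7b, had the opposite direction to Myo7b. It had 24.9, 25.1 and 23.1 CPM in the heterozygous libraries and 17.9, 16.8 and 13.2 CPM in the LOH libraries. All LOH libraries lay below all heterozygous ones, as they did for 16.5% of all genes tested. The log2 fold change of -0.61 (SE 0.20) did not pass (edgeR adjusted p 0.113). Anks4b was called lower without LOH line 6 (0.0477, log2 fold change -0.74), by DESeq2 (0.0475) and by limma on log2(TPM + 1) (0.0486). Those settings called 2449 of 15132, 2281 of 14537 and 1911 of 11918 genes tested, in that order. On log2(TPM + 1) the median of all genes was -0.35, and only 14.7% of the called genes were higher. The gene lies on chromosome 7 (120173858 to 120185586, plus strand), and no other annotated gene overlaps it.

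**Figure D1:**
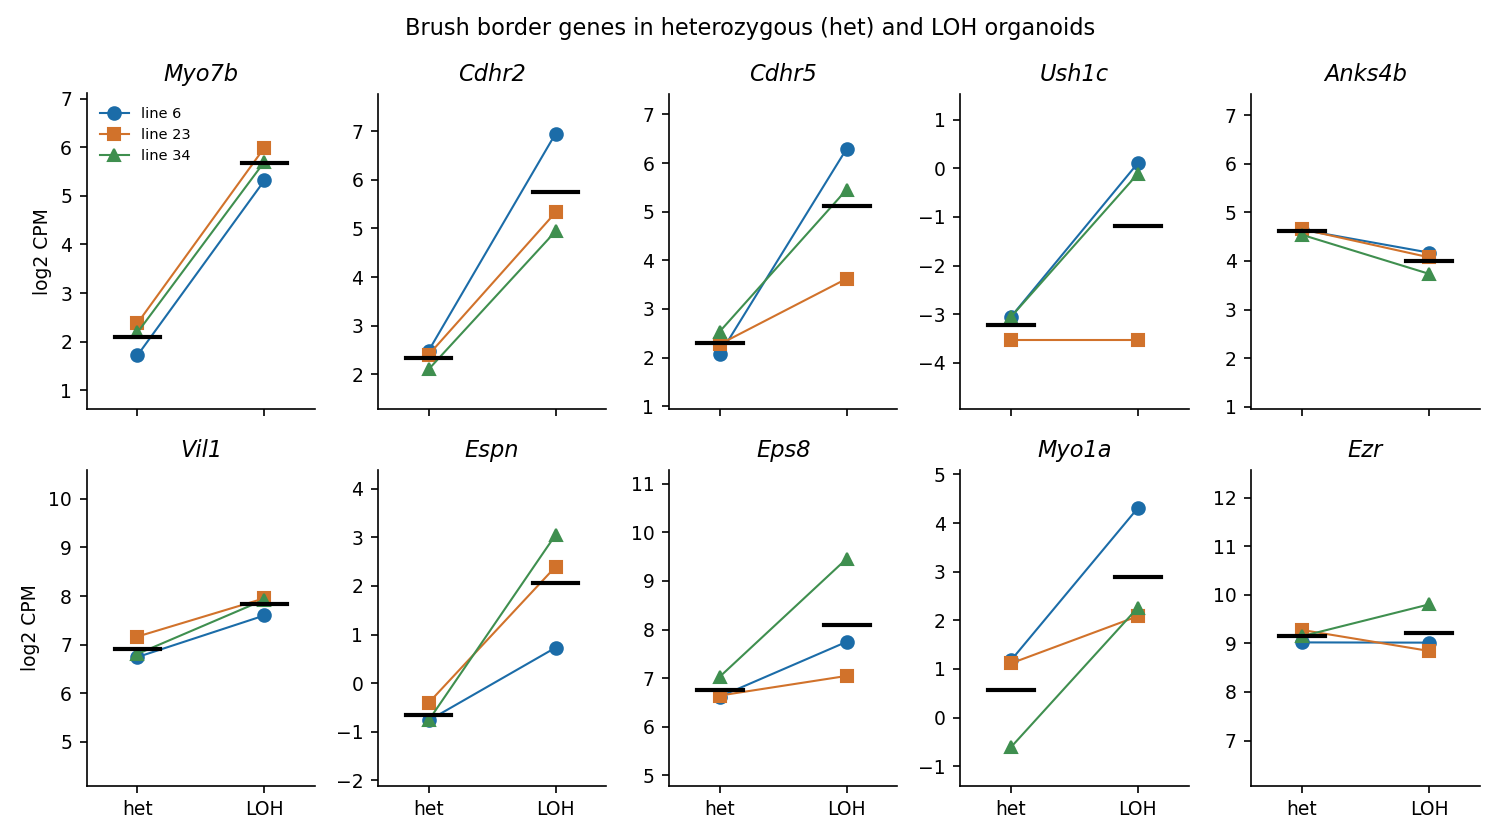
Level of each gene as log2 CPM (y axis, prior count of 2) in the heterozygous (het) and LOH library of organoid lines 6, 23 and 34; lines join libraries of 1 organoid line, black bars are group means, and each panel spans the same number of log2 units. Myo7b, Cdhr2, Cdhr5, Espn, Vil1, Eps8 and Myo1a are higher in all 3 LOH libraries, Anks4b is lower in all 3, and Ush1c in line 23 is at 0 counts in both libraries.

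Promoter sequences let the genes that rose be set beside one that did not. The windows of the RefSeq table (GRCm38.p6, 250 bases before to 50 after the start site, 5′ to 3′ on the gene's strand) are printed for Cdhr2, Cdhr5 and Vil1, which rose, and for Anks4b, which had the opposite direction. Windows were given for 8 of the 10 genes, and those of Espn, which also rose, and of Ush1c, Myo1a and Ezr are not printed. Capitals mark the matches listed after them.
Cdhr2, chr13:54701213-54701512, plus strand: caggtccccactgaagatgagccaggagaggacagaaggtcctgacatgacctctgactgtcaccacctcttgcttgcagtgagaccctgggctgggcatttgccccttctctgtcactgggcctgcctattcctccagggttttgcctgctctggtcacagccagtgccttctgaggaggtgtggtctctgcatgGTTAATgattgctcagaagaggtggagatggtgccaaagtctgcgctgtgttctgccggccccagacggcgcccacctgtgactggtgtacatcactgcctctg
Cdhr5, chr7:141276737-141277036, minus strand: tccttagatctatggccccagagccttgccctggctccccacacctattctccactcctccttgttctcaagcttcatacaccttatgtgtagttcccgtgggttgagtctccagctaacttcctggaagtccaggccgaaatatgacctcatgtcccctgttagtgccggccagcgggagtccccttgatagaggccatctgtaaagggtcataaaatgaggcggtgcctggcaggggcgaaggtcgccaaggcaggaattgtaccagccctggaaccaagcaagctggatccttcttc
Anks4b, chr7:120173608-120173907, plus strand: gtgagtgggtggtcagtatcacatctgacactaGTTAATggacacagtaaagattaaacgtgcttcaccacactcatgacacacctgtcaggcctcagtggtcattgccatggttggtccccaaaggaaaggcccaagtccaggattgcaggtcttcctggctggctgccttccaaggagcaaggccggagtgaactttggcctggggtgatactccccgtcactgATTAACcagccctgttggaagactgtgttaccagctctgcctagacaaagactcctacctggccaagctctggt
Vil1, chr1:74409134-74409433, plus strand: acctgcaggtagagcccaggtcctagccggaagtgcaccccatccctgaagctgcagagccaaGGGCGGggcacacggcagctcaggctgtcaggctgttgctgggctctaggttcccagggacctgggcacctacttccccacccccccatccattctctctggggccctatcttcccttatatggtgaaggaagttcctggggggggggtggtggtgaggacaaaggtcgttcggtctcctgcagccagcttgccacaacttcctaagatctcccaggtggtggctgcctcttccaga

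Motifs were searched by letters on both strands. The HNF1 half-site GTTAAT began at -54, counted from the start site, in Cdhr2 and at -217 and, as ATTAAC on the other strand, at -24 in Anks4b, in 2 of the 8 genes and in 7.1% of all 32851 windows. The CDX motif TTTATNG was found in 1 of the 8 genes, in a window of Espn (10.9% of all windows). The HNF4 motif CAAAGTCCA (0.475% of all windows), the GATA motif AGATAA (11.2%), the TATA box TATAAA (13.6%) and the p53 half-site (8.36%) were found in none of them. The GC box GGGCGG, which began at -187 in Vil1, was in windows of 4 genes (35.7% of all windows), and the CCAAT box CCAAT in 1, Espn (37.4%). Genes were counted over all their windows, of which Espn has several, while the percentages are per window, so the 2 are not like measures. None of these letters were found in the windows of Cdhr5 and Myo1a. A match is a description of the letters and not of binding.

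Among the genes of the actin core, Vil1 rose with a small fold change. Villin bundles and severs actin filaments. Vil1 had 107.2, 143.6 and 112.0 CPM in the heterozygous libraries and 194.1, 247.8 and 243.1 CPM in the LOH libraries, with means of 120.9 ± 19.8 and 228.3 ± 29.8 CPM (SD, n = 3 each). The groups did not overlap. edgeR put the log2 fold change at 0.92 (SE 0.20, adjusted p 0.0481). It did not pass with the block (0.113), with no filter (0.0552), without line 6, 23 or 34 (0.0581, 0.207 and 0.311), without LOH line 23 (0.0911) or 34 (0.0773), or without heterozygous line 6, 23 or 34 (0.18, 0.137 and 0.248). Vil1 lies on chromosome 1 (74409376 to 74435559, plus strand) and shares 49 bases with Usp37 on the opposite strand.

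Espn, whose product cross-links actin filaments into tight parallel bundles, rose from a low level. It had 0.50, 0.668 and 0.501 CPM in the heterozygous libraries, from 15, 9 and 15 counts, and 1.57, 5.17 and 8.20 CPM in the LOH libraries, from 27, 137 and 176 counts. The groups did not overlap, and LOH line 6 was the nearest to the heterozygous libraries. edgeR put its log2 fold change at 3.17 (SE 0.64, adjusted p 0.0399). It did not pass with the block (0.0917), without line 23 or 34 (0.242 and 0.241), without LOH line 23 (0.0794) or 34 (0.0611), or without heterozygous line 6, 23 or 34 (0.165, 0.157 and 0.198). Espn lies on chromosome 4 (152120331 to 152152371, minus strand).

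Eps8, an actin-capping and bundling protein of the microvillus tip, varied widely between LOH libraries. It had 98.2, 99.8 and 130.5 CPM in the heterozygous libraries and 214.9, 132.1 and 703.3 CPM in the LOH libraries. LOH line 34 stood far above the others, and LOH line 23 was only just above the highest heterozygous library. The log2 fold change of 1.68 (SE 0.59) did not pass (edgeR adjusted p 0.136), and it was 0.66 without LOH line 34. Eps8 lies on chromosome 6 (137477245 to 137654876, minus strand) and contains Gm44106 on its own strand, which had at most 2 counts.

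Of the genes that tie the core to the membrane, neither passed. Myo1a, a myosin that links the bundle laterally to the membrane, had 2.17, 2.08 and 0.567 CPM in the heterozygous and 19.7, 4.15 and 4.70 CPM in LOH libraries. The groups did not overlap, with LOH line 6 above the rest, and the log2 fold change of 2.58 (SE 0.79) did not pass (edgeR adjusted p 0.101). It was 1.43 without LOH line 6. Myo1a lies on chromosome 10 (127705170 to 127720940, plus strand). Ezr, the membrane linker and most abundant of the 10 genes, had 519.1, 619.8 and 567.0 CPM in the heterozygous and 517.3, 459.6 and 892.1 CPM in the LOH libraries, which overlapped. Its fold change, 0.13 on the log2 scale (SE 0.28, edgeR adjusted p 0.792), turned to -0.22 without LOH line 34 and to -0.32 on log2(TPM + 1). Ezr lies on chromosome 17 (6738041 to 6782784, minus strand) and shares 4 bases with Sytl3 on the opposite strand.

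All LOH libraries lay above all heterozygous ones for Vil1, Cdhr2, Cdhr5, Espn, Eps8 and Myo1a, that is for 6 of the 9 partners, beside 16.4% of all genes tested. The lines did not order the genes alike. Line 6 had the largest log2 ratios for Cdhr2 (4.47), Cdhr5 (4.23) and Myo1a (3.14) and the smallest for Espn (1.498). Line 34 had the largest for Espn (3.82), Eps8 (2.43) and Vil1 (1.12). Line 23, where Myo7b had a log2 ratio of 3.61, had the smallest for Cdhr5 (1.35), Myo1a (0.97) and Eps8 (0.40), with 2.93 for Cdhr2. Each line has 1 library per genotype, so differences between lines were not tested. The median log2 fold change of all tested genes on the members' chromosomes was -0.36 on chromosome 13 (Cdhr2), -0.28 on 4 (Espn), -0.10 on 7 (Cdhr5, Ush1c, Anks4b), -0.074 on 10 (Myo1a), 0.11 on 6 (Eps8) and 18 (Myo7b), 0.16 on 17 (Ezr) and 0.20 on 1 (Vil1).

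**Figure D2:**
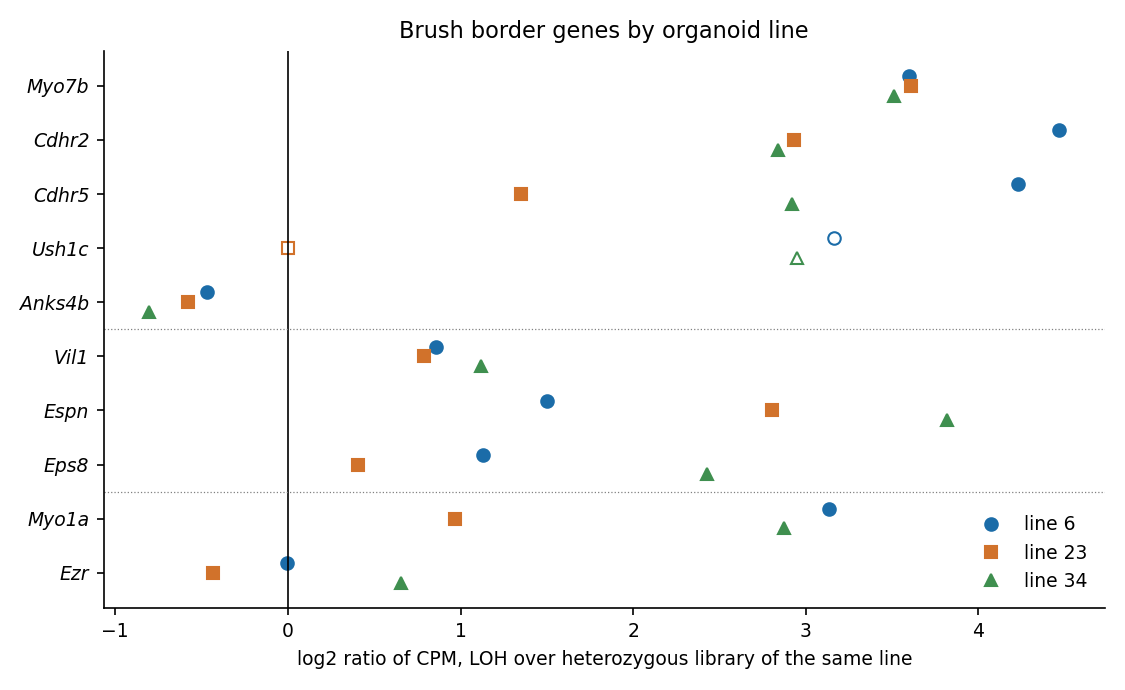
Log2 ratio of CPM between the LOH and the heterozygous library of each organoid line (x axis) for each gene (y axis), with dotted lines between the adhesion complex, the actin core and the membrane links; open symbols mark Ush1c, which rests on 0 to 18 counts. The Myo7b ratios lie between 3.51 and 3.61 in the 3 lines, while those of Cdhr5 spread from 1.35 to 4.23 and those of Anks4b are all below 0.

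Levels of the 10 genes can be set against each other only per transcript length, as TPM (transcript abundance scaled for length and depth). In heterozygous libraries the mean TPM fell in the order Ezr (233.1), Vil1 (46.9), Eps8 (36.96), Anks4b (7.39), Cdhr5 (2.56), Cdhr2 (1.43), Myo7b (0.74), Myo1a (0.57), Espn (0.43) and Ush1c (0.017). The ranges of Vil1 and Eps8, of Myo7b and Myo1a, and of Myo1a and Espn overlapped, and the other neighbours in this order did not. In LOH libraries the order was Ezr (191.7), Eps8 (81.7), Vil1 (67.4), Cdhr5 (19.3), Cdhr2 (14.7), Myo7b (6.86), Anks4b (3.72), Myo1a (2.63), Espn (2.20) and Ush1c (0.317). There, the ranges of neighbours were apart only between Vil1 and Cdhr5, Myo7b and Anks4b, and Espn and Ush1c. Anks4b thus had about 10 times the TPM of Myo7b in heterozygous libraries (6.71 to 8.53 against 0.64 to 0.82) and less TPM than Myo7b in every LOH library (2.78 to 4.52 against 5.80 to 8.46). TPM is relative to all transcripts, and on log2(TPM + 1) the median of all genes was lower in LOH libraries by 0.35, so a difference in TPM reads lower than one in CPM. On that scale the called genes were 14.7% higher against 68.2% in CPM, and the changes of Cdhr2 (2.40) and Cdhr5 (2.18) passed while that of Vil1 (0.52, limma adjusted p 0.0797) did not.

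Transcript shares were examined as a measure that did not choose the genes. RSEM divides each gene's reads between annotated transcripts, and 12 transcripts of Eps8, Cdhr5, Ezr and Vil1 reached 5% of their gene in any library. Eps8-202 made 44.3%, 54.6% and 52.7% of Eps8 in the heterozygous and 55.5%, 55.9% and 69.1% in the LOH libraries. Eps8-203 made 18.3%, 16.6% and 19.2% in the heterozygous and 13.0%, 8.74% and 6.94% in the LOH libraries. For both transcripts the groups did not overlap, in opposite directions. The start site of Eps8-202 lies 78268 bases downstream of that of Eps8-203 (137571017 and 137649285 on chromosome 6). Eps8-201 has the same start site as Eps8-203. It made 10.5%, 16.5% and 10.2% in the heterozygous and 11.1%, 10.9% and 11.5% in the LOH libraries, which overlapped. Eps8-203 has 0 exonic bases that Eps8-201 lacks, so the split between these rests on RSEM's estimate. A shift between start sites was not tested. The differences of Eps8-202 and Eps8-203 each had an exact two-sided permutation p of 0.1, the smallest that 3 against 3 libraries allow, or 0.4 adjusted over the 12 shares.

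The longer Cdhr5 transcript, Cdhr5-202, has 498 exonic bases that Cdhr5-201 lacks, and both were present in every library. Cdhr5-202 made 31.2%, 45.2% and 38.2% of Cdhr5 in the heterozygous and 40.9%, 30.2% and 45.5% in the LOH libraries, which overlapped (exact permutation p 0.9). Cdhr5-203, annotated to start 3039 bases downstream of Cdhr5-201, was estimated at 0 in the heterozygous libraries and at 7.62%, 7.95% and 9.64% in the LOH libraries. It has 0 exonic bases that Cdhr5-202 lacks and shares 1001 with it. Its share is therefore RSEM's split of reads that can also fit the longer transcript. In estimated counts, Cdhr5-203 had 41.9, 10.9 and 37.7 in the LOH libraries, or 3.11%, 3.37% and 4.001% of the gene's counts. With 123, 64 and 171 Cdhr5 counts in the heterozygous libraries, 3 counts would be 2.44%, 4.69% and 1.75%, which is above every LOH share in line 23 and below every LOH share in lines 6 and 34. Ezr-201 (88.3% to 92.7%) and Vil1-201 (95.96% to 98.2%) made nearly all of their genes in all 6 libraries. Myo7b, Cdhr2 and Anks4b have a single annotated transcript in the deposited tables.

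**Figure D3:**
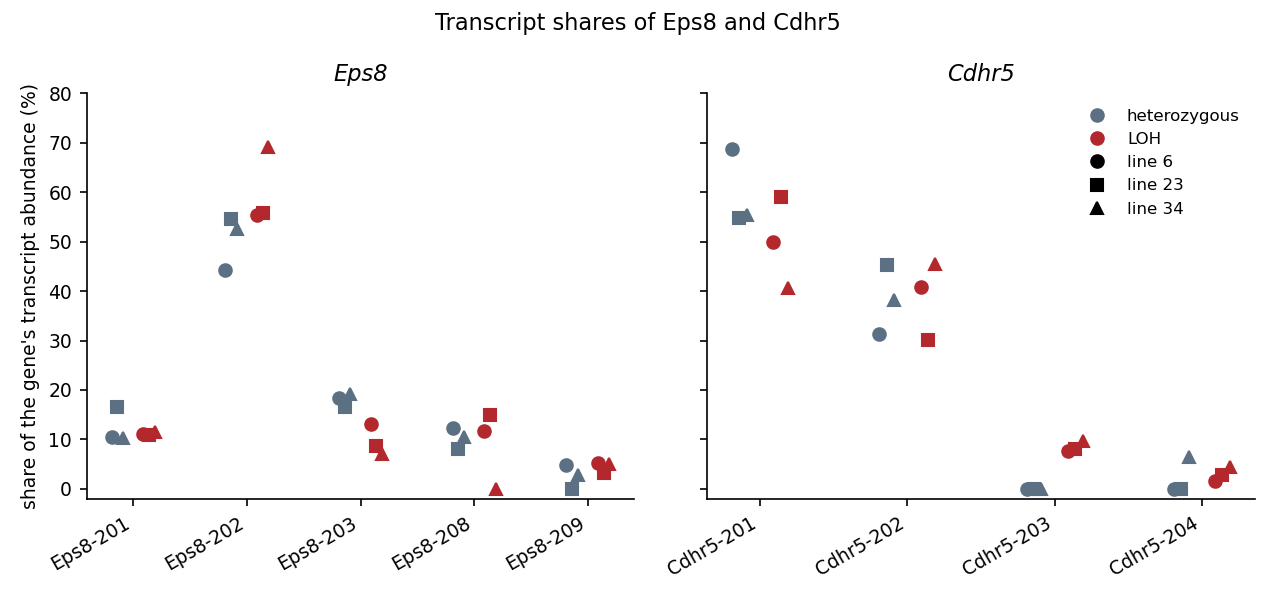
Share of the gene's transcript abundance (y axis, percent) for transcripts of Eps8 and Cdhr5 that reached 5% in any library, in heterozygous (grey) and LOH (red) libraries, with symbols for organoid lines 6, 23 and 34. Eps8-202 is higher in each LOH library (55.5% to 69.1%) than in any heterozygous one (44.3% to 54.6%), and Eps8-203 runs the other way.

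Genes with the profile most like that of Myo7b were found by distance, over the 6 libraries, between log2 CPM values centred on each gene's mean. Of the 12669 genes averaging 1 CPM or more, Arid3a (distance 0.601), Trpm6 (0.603), Entpd8 (0.664), Ptprr (0.687) and Capg (0.698) were nearest. Arid3a (0.133 to 0.371 CPM) and Entpd8 (0.367 to 0.890 CPM) lay below 1 CPM in every heterozygous library. They reached that mean only through their LOH libraries. Trpm6, a magnesium-permeable channel of absorptive epithelium, had 0.934, 1.11 and 0.901 CPM in the heterozygous and 10.4, 11.3 and 12.4 CPM in LOH libraries. The nearest partners were Espn (1.77) and Cdhr2 (2.03), which would stand in places 100 and 174, followed by Cdhr5 (2.59, place 403). Distances rest on the same values that chose Myo7b. A place near Myo7b therefore restates a similar fold change and is no further support that a partner follows. Espn, at 0.50 to 0.668 CPM in heterozygous libraries, also reached the mean of 1 CPM only through LOH libraries. Anks4b, at 5.20, was the farthest of the 8 partners compared, which leave out Ush1c.

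A wider list of 31 other genes of microvillus structure, its tip, its membrane links and apical traffic was chosen by role. Of the 30 tested, 2 rose and 1 fell, beside 5.21% of all genes called, and the median log2 fold change was 0.35 against 0.06 over all genes tested. Eps8l3, a relative of Eps8, had 35.9, 51.0 and 33.6 CPM in the heterozygous and 116.5, 137.5 and 171.9 CPM in the LOH libraries (log2 fold change 1.82, SE 0.25, edgeR adjusted p 0.0184; 0.0534 with the block). Clic5, a protein linked to ezrin at the base of microvilli and stereocilia, had 0.934, 2.23 and 0.434 CPM in the heterozygous and 11.5, 30.8 and 9.13 CPM in the LOH libraries (3.91, SE 0.74, adjusted p 0.0354; 0.0318 with the block). Podxl, an ezrin-bound sialomucin of the apical membrane, fell from 73.6, 72.6 and 72.7 to 19.1, 33.6 and 19.2 CPM (log2 fold change -1.61, SE 0.27, adjusted p 0.0267; 0.0675 with the block). None of these 3 passed without heterozygous line 6, 23 or 34 (adjusted p 0.0889 to 0.157), and Clic5 did not without LOH line 23 (0.0654, log2 fold change 3.16). Without line 6, Clic5 and Podxl did not pass (0.0738 and 0.0532).

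The most abundant genes of the wider list did not pass. They were Rab11a, a GTPase of apical recycling (log2 fold change 0.10, edgeR adjusted p 0.882), Slc9a3r1, the scaffold that binds ezrin (0.14, 0.714), and Stxbp2, a regulator of apical membrane fusion (0.34, 0.238). On log2(TPM + 1) they were at -0.42, -0.27 and -0.03. Calml4, a light chain of Myo7b named here after its values were seen, had 11.8, 24.8 and 13.9 CPM in the heterozygous and 34.4, 45.8 and 48.6 CPM in the LOH libraries, which did not overlap. Its log2 fold change of 1.36 (SE 0.32) did not pass (edgeR adjusted p 0.0581).

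Villin belongs to the gelsolin family of actin regulators, and 3 of its 7 other members rose, beside 3.55% of all genes tested. Capg, an actin-capping protein, had 15.0, 18.4 and 17.4 CPM in the heterozygous and 219.4, 395.2 and 269.2 CPM in the LOH libraries (log2 fold change 4.12, edgeR adjusted p 0.00669). Avil, a close relative of villin and a gene also expressed by tuft cells, had 1.47, 2.08 and 2.90 CPM against 8.85, 17.6 and 15.3 CPM (2.69, adjusted p 0.0208). Scin, a severing protein, had 4, 0 and 3 counts in the heterozygous and 154, 207 and 35 counts in the LOH libraries (adjusted p 0.0235; 0.0534 with the block). With so few heterozygous counts, Scin passed the filter on low counts only through LOH libraries. Its call is therefore a description and adds no support to the share of the family that rose. Gsn (1.21, adjusted p 0.163; log2 fold change 0.48 without LOH line 34) and Flii (0.41, 0.222) did not pass. None of the family passed without heterozygous line 6, 23 or 34 (adjusted p from 0.065), and Scin did not without line 6 (0.0554).

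The hair cell bundle uses a related complex in which Myo7a, Cdh23, Pcdh15 and Ush1g take the places held in the brush border by Myo7b, the cadherins and Anks4b. Of 10 such genes 4 were tested and 0 passed in the edgeR test, with 1 at an unadjusted p under 0.05, beside 3681 of all 14537 genes. That gene was Ush1g, which had 22, 2 and 5 counts in heterozygous and 194, 19 and 82 counts in LOH libraries (log2 fold change 3.82, SE 1.10, edgeR adjusted p 0.0897; 0.0537 with the block). Myo7a had 12.1, 10.5 and 7.51 CPM in the heterozygous and 12.6, 16.6 and 8.66 CPM in the LOH libraries, which overlapped (log2 fold change 0.33, SE 0.32, edgeR adjusted p 0.537). Triobp (0.52, adjusted p 0.212) and Whrn (0.56, 0.414) did not pass either. Ush1g is named here after its values were seen.

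Of 10 digestive enzymes and receptors anchored in the intestinal brush border, 5 were tested and 0 passed in the edgeR test, with 2 at an unadjusted p under 0.05, beside the same 3681 of 14537 genes. Alpi, intestinal alkaline phosphatase, had 9, 0 and 0 counts in the heterozygous and 1108, 13 and 70 counts in the LOH libraries. It did not pass in the main fit (edgeR adjusted p 0.086). Alpi was called higher with the block (0.0257), with no filter (0.035) and by DESeq2 (0.0178). Dpp4, a peptidase, had 21.6, 24.8 and 19.8 CPM in the heterozygous and 3.84, 16.01 and 1.58 CPM in the LOH libraries (log2 fold change -1.62, edgeR adjusted p 0.228). It was -3.03 without LOH line 23 (adjusted p 0.0343), and limma called it lower on log2(TPM + 1) and log2(TPM + 0.1) (adjusted p 0.0333 and 0.0484). On these 2 scales 1911 and 1753 of 11918 genes were called, only 14.7% and 15.2% of them higher, and the median of all genes was -0.35 and -0.42. Mep1b, a meprin subunit, had 3, 2 and 7 counts in the heterozygous and 159, 17 and 13 counts in the LOH libraries (edgeR adjusted p 0.0918; DESeq2 adjusted p 0.00195). Alpi and Mep1b passed the filter on low counts only through LOH libraries. LOH line 6 held most of the counts of Alpi and Mep1b.

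**Figure D4:**
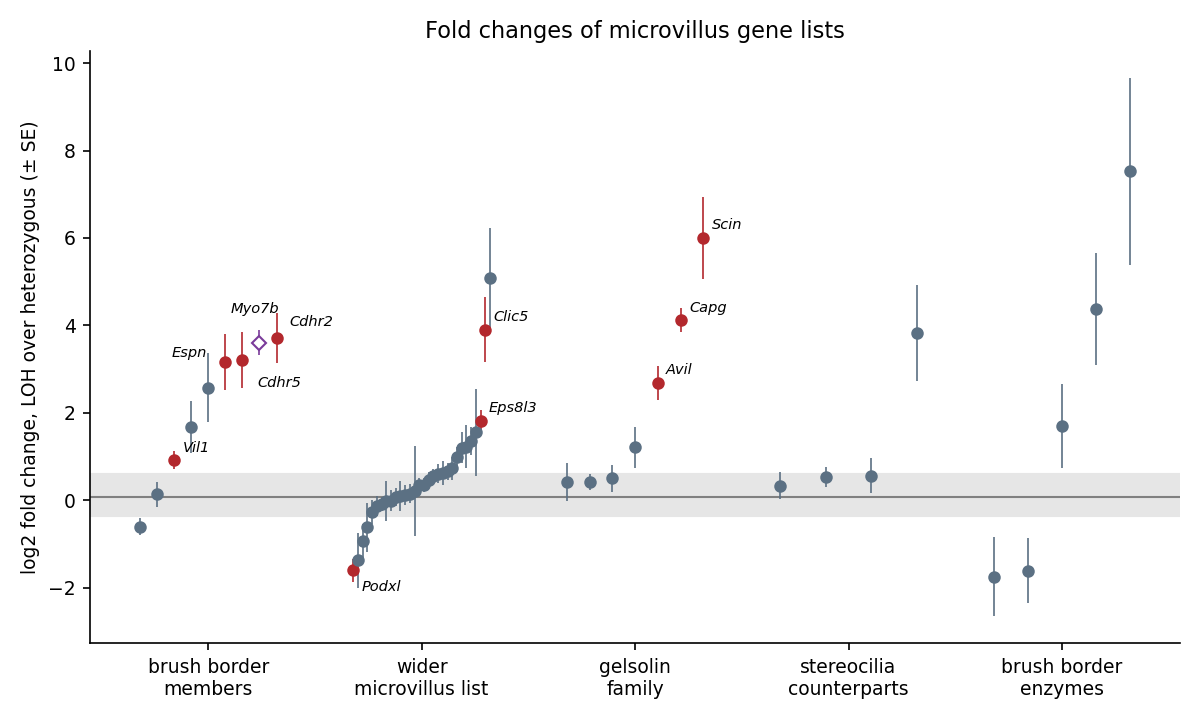
Log2 fold change between LOH and heterozygous libraries with its standard error (y axis) for each tested gene of 5 lists (x axis), with genes that passed an edgeR adjusted p of 0.05 in red and named, and Myo7b as an open diamond without a test; the grey band spans the quartiles of all tested genes, -0.36 to 0.59. The 4 called partners lie between 0.92 and 3.70, and Podxl is the called gene below 0.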

How the data were processed

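RNA of 6 pancreatic tumour organoid cultures was sequenced as total RNA libraries that keep strand, per the labels. The deposited gene and transcript tables hold expected counts, the authors' estimated counts, which need not be whole, TPM scaled by the authors for length and depth, and for transcripts the percent of the gene (the authors' IsoPct). The deposited normalized tables hold a signal, the truncated expected count divided by 1 factor per library (100% of values above 0), and gave gene names and the protein-coding set. FastQC 0.11.5, STAR 2.5.2b, RSEM 1.3.0, DESeq2 1.44.0 and the build GRCm38.p5 are named per the submitters' processing notes, without their roles. The strand setting is not given in the sources used here. Coordinates came from GENCODE mouse release 21 (GRCm38), promoters from RefSeq (GRCm38.p6).

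Libraries were grouped by title. A further allele that all 6 libraries share is not reported here. Expected counts were rounded, kept by filterByExpr (14537 genes), TMM-scaled, and tested in edgeR 4.0.16 (R 4.3.3) by quasi-likelihood, two-sided, with Benjamini-Hochberg adjustment over all genes and a threshold of 0.05. Log2 CPM used a prior count of 2, and SE is the log2 fold change divided by the root of F. The members and lists were chosen with earlier results of these data known. Named genes are the members, genes of the lists that passed, the 3 with the highest mean TPM per list, Trp53 and the 5 genes nearest to Myo7b. Alternatives were RLE scaling, no filter, the protein-coding table only, DESeq2 1.42.0, limma 3.58.1 on log2 TPM with 1 or 0.1 added (genes that reach 1 TPM in 3 libraries), the block, and each library and line left out. The edgeR fits without and with the block were also run on simulated counts, drawn with no effect of organoid line. Such counts cannot tell how either fit handles the lines here. A floor of 3 counts covers counting error only, as PCR copies were not marked.

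Titles give both libraries of a number the same organoid line, which pairs them. Across genes, which are no replicates, deviations from group means correlated at -0.3, 0.01 and 0.29 within lines 6, 23 and 34 and from -0.39 to 0.3 between lines. The unblocked fit was the main one because no label states a paired model. It leaves out the pairing by line that the titles give, and the block is given where it changed a call. Python 3.11.15 with pandas 2.3.3, numpy 2.4.6 and matplotlib 3.10.9 made the tables and figures.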

Additional observations from a re-analysis of the deposited data

Results flagged for a closer look

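These genes are listed because their ratios had opposite signs between lines, which was not tested, since each line has 1 library per genotype. For Ezr the log2 ratio was -0.005 (line 6), -0.43 (line 23) and 0.65 (line 34), a distance of 1.09 between the highest and the lowest line. Slc9a3r1, the scaffold that binds ezrin, had ratios of 0.61, -0.36 and 0.12 in that order, a distance of 0.963. Rab11a had -0.57, -0.30 and 0.80, a distance of 1.37. Whrn had 0.86, 0.76 and -0.03, a distance of 0.893. None of the 4 genes passed an edgeR adjusted p of 0.05 over the 3 lines.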

How the results depend on the processing

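Members, genes of the lists that passed or had the highest mean TPM, and Trp53 were followed through the alternatives, 27 genes with a fitted fold change. Arid3a, Trpm6, Entpd8, Ptprr, Calml4 and Ush1g were not followed. The direction of 23 of the 27 was the same in each alternative that tested them, and of the 8 partners with a fitted value all but Ezr are among the 23. Ezr turned to -0.22 without LOH line 34 and without line 34, -0.32 on log2(TPM + 1) and -0.33 on log2(TPM + 0.1), and its values with a library or line left out ran from -0.22 to 0.37. Slc9a3r1 turned to -0.06 without LOH line 6, -0.13 without line 6 (up to 0.36 with others left out), and -0.27 on both TPM scales. Rab11a turned to -0.025 with the block, -0.42 without LOH line 34, -0.43 without line 34 (up to 0.32 with others left out), and -0.42 on both TPM scales, and Stxbp2 to -0.028 and -0.029 there. Scaling moved all genes there, by a median of -0.35 and -0.42.

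Counts of calls moved more, and the cause was not tested. Against 4 partners called, the block called 1, DESeq2 7 (with an edgeR unadjusted p under 0.05, also 7), and limma 2 with the smaller pseudocount. Leaving out a library or a line gave 0 to 5 partners. The wider list had 3 genes called, 1 with the block, 9 with DESeq2, 5 with no filter, and 6 and 5 on log2(TPM + 1) and log2(TPM + 0.1), and 0 to 7 with a library or line left out. Over all genes, 757 were called, 213 with the block, 2281 with DESeq2, 1911 and 1753 on the TPM scales (14.7% and 15.2% of them higher, against 68.2%), and 0 to 2449 with a library or line left out. Of the 213, Cdhr2 was the only partner. Beyond the calls printed with the results, the block changed no other call among the 27 genes followed. Depth limits Ush1c, Espn, Scin, Alpi and Mep1b, which had 0 to 15 counts per heterozygous library.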
